A study of Mus musculus with 12 samples.

Results

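Vim, Lmna and Lgals1 are 3 of the 12885 genes in the deposited expression table of naive CD8 T cells, and were chosen by name for their rise between 12 h and 24 h of stimulation. The values that chose them are the levels at 12 h and 24 h in each genotype, so every figure for that interval is a description of the chosen genes and carries no test. All 3 passed the filter on low values. The cells came from spleens of 6-week-old C57Bl/6 mice, recorded as female, that were wild type (WT) or homozygous for the Ikaros-Zn4 mutation (Ikaros-Zn4-/-, here Zn4), which alters the transcription factor Ikaros. CD8+ cells high in CD62L and low in CD44 were sorted and either lysed directly (0 h, no antibody) or cultured on plates coated with anti-CD3 and anti-CD28, which engage the T cell receptor complex and its costimulatory receptor, for 12 h or 24 h. There were 6 groups of 2 libraries, and no group carried another allele or agent by the labels. The labels name no promoter or cell type that limits the mutation and do not say whether replicates came from separate animals, so p-values measure the spread between these samples.

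The 3 genes encode structural or glycan-binding proteins. Vim encodes vimentin, the intermediate filament protein of lymphocytes and mesenchymal cells, which forms a cytoplasmic network around the nucleus. Lmna encodes lamins A and C, the A-type lamins of the meshwork beneath the inner nuclear membrane that helps set nuclear stiffness, and in T cells it is known as a gene whose product appears after activation. Lgals1 encodes galectin-1, a small lectin that binds galactose-containing glycans, is released from activated T cells and is known to limit T cell responses. All are commonly higher in activated or memory T cells than in naive ones.

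In GRCm38, Vim lies on the plus strand of chr2:13573927-13582826, Lmna on the minus strand of chr3:88480147-88509956 and Lgals1 on the plus strand of chr15:78926725-78930465. GENCODE M21 lists 6 transcripts for Vim, 7 for Lmna and 2 for Lgals1, and the table gives 1 value per gene, so lamin A and lamin C cannot be told apart. No other annotated gene overlaps them, but Lgals1 has 2 annotated pseudogenes, and the sources used here do not say how reads that match several places were counted. Start-site windows from 250 bases before to 50 after the start were available from RefSeq (GRCm38.p6) for 2 of the 3 genes, Vim and Lmna. The stretches below are shown because each holds a textbook promoter or response element near a RefSeq start site of a gene with a large Zn4 change. The Vim start site lies 384 bp inside its GENCODE gene, and the Lmna start site used here lies 6604 bp inside its own. The Lmna stretches are thus within the gene and belong to an internal start. The nearest GENCODE transcript start lies 11 bp away for Vim and 15 bp away for Lmna. Capitals mark a TATA box (TATAAA) in Vim, from position -45 to -16 at chr2:13574266-13574295 on the plus strand. In Lmna they mark a Sp1 GC box (GGGCGG, here on the opposite strand), from position -250 to -35 at chr3:88503387-88503602 on the minus strand. In the last stretch, from position 21 to 50 at chr3:88503303-88503332 on the minus strand, they mark an AP-1 element (TGANTCA).
Vim: ttcctaacagtgtTATAAAagcagcgccct
Lmna upstream: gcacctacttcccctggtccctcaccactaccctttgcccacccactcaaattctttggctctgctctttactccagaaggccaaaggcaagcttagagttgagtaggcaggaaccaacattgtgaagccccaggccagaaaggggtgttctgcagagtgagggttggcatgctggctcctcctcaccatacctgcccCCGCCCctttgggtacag
Lmna start: gcctctgcctggctgtcagTGACTCAgtgt
Over 32851 RefSeq windows of the same length, searched on both strands, the TATA box letters occurred in 13.6%, the GC box in 35.7% and the AP-1 element in 7.81%. The core bound by Ikaros (TGGGAA), present in 25.6% of windows, was not found in the Vim window or in either of 2 Lmna windows. A CCAAT box (CCAAT, 37.4% of windows) was found in the Vim window and in the other Lmna window, which also held a Runx motif (TGTGGT, 16.8%). An NF-kB motif (4.51%) was found in the Vim window, overlapping none of the others, and SRF and E2F motifs in none of these windows. A match is a run of letters and says nothing of binding.

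The libraries held 24263907 to 33389808 reads. Ikzf1, the gene of Ikaros, stood at 90.9 to 139 RPKM (read counts divided by gene length and sequencing depth) across the 12 libraries, but a value per gene does not show the altered part of the transcript and so does not check the genotype. All 10 CD8 T cell markers searched were listed. Their sum was 1472 to 1487 RPKM in WT and 1525 to 1571 in Zn4 at 0 h, 2496 to 2507 against 1762 to 1812 at 12 h, and 2408 to 2469 against 1643 to 1843 at 24 h. Of the 10, 5 were called lower in Zn4 at 12 h and 6 at 24 h, with 1 (Cd247) higher at each time, and the part of this in the results was not tested. Transcripts of 4 Y-linked genes, which female cells lack, summed to 38.9 RPKM in WT 12 h replicate 1, 43.4 in Zn4 12 h replicate 1 and 20.97 in Zn4 12 h replicate 2, and to at most 0.0209 RPKM in the other 9 libraries. These 3 libraries go against the recorded sex, and every change from 12 h rests on at least 1 of them. They were not alike in Xist, a transcript of female cells. It stood at 0.00230 RPKM in WT 12 h replicate 1, 0.0258 in Zn4 12 h replicate 1 and 24.3 in Zn4 12 h replicate 2. Since both Zn4 12 h libraries carry Y-linked transcripts, a Zn4 change from 12 h cannot be given without them, and the part of sex in it cannot be told apart. In bulk RNA, fewer cells with a transcript and less transcript per cell cannot be told apart either.

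Each of the 3 transcripts fell steeply from 0 h to 12 h, and the late rise started from that low point. Vim stood at 95.6 and 75.2 RPKM in resting WT cells, at 5.29 and 3.48 at 12 h, and at 31.6 and 31.8 at 24 h. In Zn4 cells Vim was 146 and 166 RPKM at 0 h, 5.54 and 8.70 at 12 h, and 225 and 150 at 24 h. The 24 h libraries lay above the 12 h libraries in both genotypes, and the Zn4 24 h libraries lay far above the WT 24 h libraries. Group means of Vim were 31.7 ± 0.116 RPKM in WT (SD, n = 2) and 188 ± 52.8 RPKM in Zn4 (SD, n = 2) at 24 h, 7.24-fold and 26.3-fold above the 12 h means. WT cells at 24 h had 37.1% of their resting Vim level, while Zn4 cells had 120% of theirs. On the log2(RPKM + 1) scale used for every log2 change here, Vim rose by 2.62 ± 0.25 in WT (SE) and by 4.54 ± 0.25 in Zn4, a difference of 1.91 ± 0.35. The Zn4 rise ranked 5 of 12726 tested genes, and the WT rise ranked 88.

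Lmna separated the genotypes most. In WT cells its level went from 4.56 and 7.90 RPKM at rest to 0.0581 and 0.134 RPKM at 12 h, and was 0.300 and 0.299 RPKM at 24 h. These WT values rest on 6 and 19 reads at 12 h and on 31 and 36 reads at 24 h. In Zn4 cells Lmna went from 10.3 and 17.8 RPKM at 0 h to 0.242 and 0.470 RPKM at 12 h, 29 and 55 reads. At 24 h the Zn4 libraries held 60.0 and 17.2 RPKM, 6533 and 1826 reads. No WT library at 12 h or 24 h reached 1 RPKM, whereas the lower Zn4 24 h library exceeded every WT library of any time. By group means the 24 h level was 3.12-fold the 12 h level in WT and 108-fold in Zn4, and 4.81% and 275% of the resting level. On the log2 scale the change was 0.25 ± 0.48 in WT (SE), where the added 1 dominates such low levels, and 4.62 ± 0.48 in Zn4. The label of a late rise therefore describes Lmna in WT cells only as a small step within a very low range. The difference between genotypes, 4.38 ± 0.68, was the highest of all 12726 tested genes. These SEs pool the spread of all 6 groups, so the SE of the WT change does not measure the spread in WT alone. On this scale the Zn4 24 h libraries differed by 1.75. Zn4 24 h replicate 1 held 3.49 times the Lmna of replicate 2, and the Zn4 change was 3.75 without replicate 1 and 5.50 without replicate 2. A pseudocount of 0.1 gave 1.06 in WT and 6.19 in Zn4.

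Lgals1 rose in both genotypes and overshot its resting level in both. WT cells held 29.9 and 26.2 RPKM at 0 h, 5.04 and 7.26 at 12 h, and 57.0 and 51.5 at 24 h. Zn4 cells held 100.3 and 96.2 RPKM at 0 h, 14.4 and 15.7 at 12 h, and 329 and 257 at 24 h. The Zn4 libraries lay above the WT libraries at each of the 3 times, with no overlap. Group means at 24 h were 8.81-fold the 12 h mean in WT and 19.5-fold in Zn4, and 193% and 298% of the resting level. The log2 change was 2.96 ± 0.16 in WT (SE) and 4.19 ± 0.16 in Zn4, a difference of 1.22 ± 0.23. The Zn4 to WT ratio of Lgals1 was 3.50 at 0 h, 2.44 at 12 h and 5.40 at 24 h, so the gap was present before stimulation. For Vim that ratio was 1.83, 1.62 and 5.91, and for Lmna 2.25, 3.71 and 129.

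**Figure D1:**
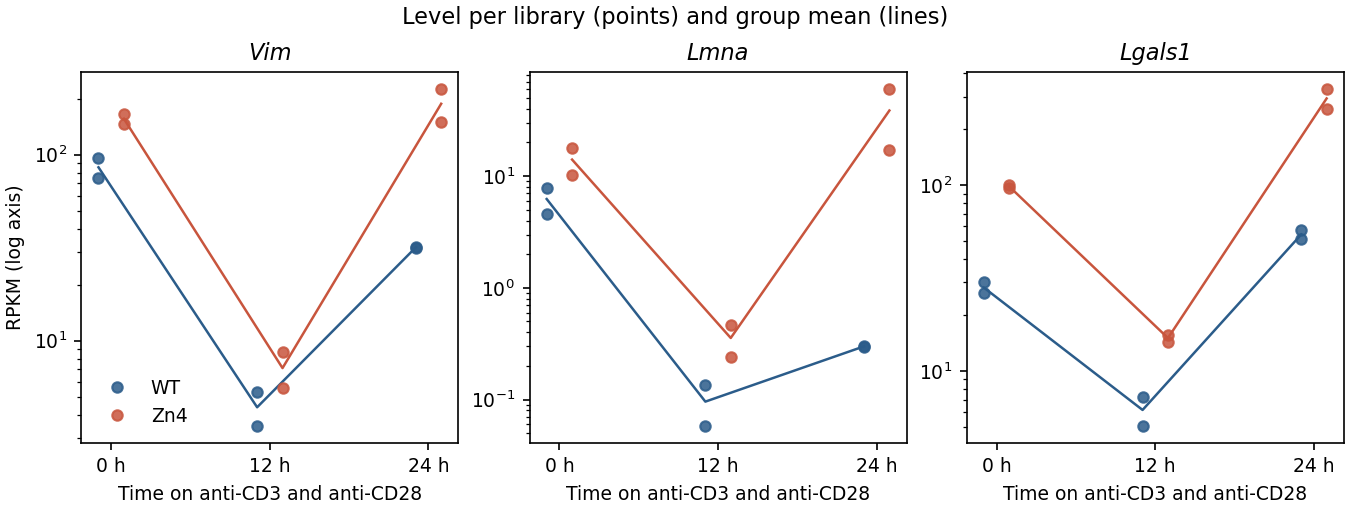
RPKM of Vim, Lmna and Lgals1 in each of the 12 libraries on a log axis (points) with the mean of each group of 2 (lines), against time on antibody; blue is WT and red is Zn4. All 3 genes have their lowest group means at 12 h in each genotype, and the Zn4 24 h libraries hold the highest group mean of each gene.

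The order of group means was led by Zn4 24 h and Zn4 0 h for every gene. For Vim and Lmna these groups overlapped, since a Zn4 0 h library lay above the lower Zn4 24 h library, while for Lgals1 they were apart. For Vim the order went on through WT 0 h, WT 24 h, Zn4 12 h and WT 12 h, all apart. For Lmna it went on through WT 0 h, Zn4 12 h, WT 24 h and WT 12 h, with overlap between Zn4 12 h (0.356 ± 0.161 RPKM, SD, n = 2) and WT 24 h (0.300 ± 0.00123 RPKM). For Lgals1 it was WT 24 h, WT 0 h, Zn4 12 h and WT 12 h, all apart.

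Among all tested genes, 24.0% were called at an adjusted p under 0.05 (limma, Benjamini-Hochberg) between 12 h and 24 h in WT and 33.6% in Zn4. Of these, higher genes made up 17.0% of all tested genes in WT and 22.6% in Zn4, and lower genes 6.94% and 11%. The difference between the genotypes was called for 0.786%, 0.652% more positive in Zn4 and 0.134% more negative. Median-ratio scaling changed the split of higher to lower genes from 2169 and 883 to 1734 and 1455 in WT, and from 2875 and 1398 to 2318 and 2066 in Zn4. Quantile normalization gave 1566 and 1503 in WT and 2007 and 2379 in Zn4. The median tested gene moved by 0.04 in WT and 0.05 in Zn4. Against it, the WT change of Lmna ranked 3629 of 12726, within the bulk of genes. The rises of the 3 genes kept their sign under each of 23 alternatives. Over these the Zn4 rise ran from 4.25 to 4.88 for Vim, 3.75 to 6.56 for Lmna and 3.76 to 4.37 for Lgals1. Without WT 12 h replicate 1, the WT rise was 2.87 for Vim, 0.20 for Lmna and 2.74 for Lgals1.

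**Figure D2:**
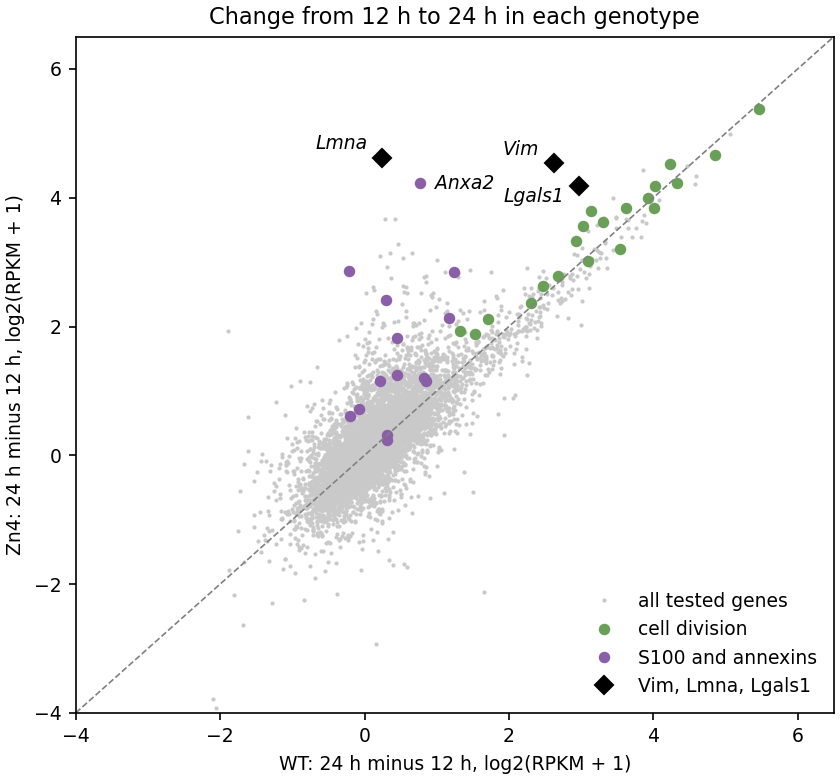
Change in log2(RPKM + 1) from 12 h to 24 h in WT (horizontal) and in Zn4 (vertical) for the 12726 tested genes (grey), with cell division genes, S100 and annexin genes and the 3 genes of interest marked; the dashed line is equality. The cell division genes lie along the line, while Lmna (0.25 and 4.62) and Anxa2 (0.77 and 4.23) lie far above it.

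At rest the means use no library of the choice, while the SE and p-values draw on the spread of all 12 libraries. Lgals1 was higher there in Zn4 than in WT cells. Its group means were 98.2 ± 2.89 and 28.0 ± 2.66 RPKM (SD, n = 2 each), a log2 difference of 1.78 ± 0.16 (SE, limma adjusted p = 0.000205), and it was called in each of 23 alternatives. In this comparison 5.72% of tested genes were called, 3.76% higher and 1.96% lower. Vim was 156 ± 14.0 RPKM in Zn4 and 85.4 ± 14.4 in WT, a log2 difference of 0.87 ± 0.25 that was not called (limma adjusted p = 0.0807). It was called (0.87, adjusted p = 0.0335) only in a limma-voom fit to reads recovered from the RPKM values, 1 of 23 alternatives. Lmna was 14.0 ± 5.35 RPKM in Zn4 and 6.23 ± 2.36 in WT, with no overlap of libraries, and its difference of 1.05 ± 0.48 was not called (limma adjusted p = 0.287) in any of the 23.

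The fall to 12 h was seen in every library of both genotypes, and whether it differed between them was not tested. At 12 h Vim was at 5.13% of its resting mean in WT and 4.57% in Zn4, Lmna at 1.54% and 2.54%, and Lgals1 at 21.9% and 15.3%. Vim fell by 4.02 on the log2 scale in WT and by 4.30 in Zn4, in each case the 17th lowest change of 12726. Lmna fell by 2.68 and 3.43, and Lgals1 by 2.04 and 2.63. The means compared from 0 h to 24 h use no 12 h library and so none with Y-linked transcripts. Their SE still draws on the spread of all 12 libraries. Over this span WT Vim changed by -1.39 ± 0.25 and Zn4 Vim by 0.24 ± 0.25. For Lmna these values were -2.44 ± 0.48 and 1.19 ± 0.48, and for Lgals1 0.93 ± 0.16 and 1.56 ± 0.16. Stimulation moved most genes: 70.2% of tested genes were called from 0 h to 12 h in WT (43.1% higher, 27.0% lower) and 73.0% in Zn4 (43.5% and 29.6%). From 0 h to 24 h 73.9% were called in WT (48.3% higher, 25.6% lower) and 74.7% in Zn4 (48.7% and 26.0%). The excess of higher genes depended on the scaling. With median-ratio scaling the 0 h to 12 h split was 4364 higher and 4528 lower in WT, against 5488 and 3440. In Zn4 it was 4532 and 4704, against 5533 and 3763. From 0 h to 24 h it was 4708 and 4633 in WT, against 6153 and 3256, and 4767 and 4682 in Zn4, against 6194 and 3315. Set against WT cells of the same time, Zn4 cells differed by 0.59 ± 0.25 for Vim, 0.30 ± 0.48 for Lmna and 1.18 ± 0.16 for Lgals1 at 12 h, and by 2.50 ± 0.25, 4.68 ± 0.48 and 2.40 ± 0.16 at 24 h. Between genotypes 13.1% of tested genes were called at 12 h (4.85% higher in Zn4, 8.28% lower) and 19.4% at 24 h (9.40% and 9.96%).

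The A-type lamin gene was set beside the B-type lamin genes, which most cells express throughout. Lmnb1, which encodes lamin B1, rose from 31.8 and 33.0 RPKM at 12 h to 87.7 and 96.1 at 24 h in WT cells, and from 34.1 and 35.9 to 72.3 and 102 in Zn4 cells. Its log2 change was 1.47 ± 0.14 in WT (SE, limma adjusted p = 8.5e-05) and 1.28 ± 0.14 in Zn4 (adjusted p = 0.00015), and the difference between genotypes was not called (-0.20 ± 0.20, adjusted p = 0.80). Lmnb2, which encodes lamin B2, did not pass the test in either genotype (0.11 ± 0.11 and -0.09 ± 0.11). Lmna made up 26.0 ± 7.86% of the summed RPKM of the 3 lamin genes in WT cells at 0 h (SD, n = 2), 0.192 ± 0.105% at 12 h and 0.271 ± 0.0144% at 24 h. In Zn4 cells its share was 42.9 ± 9.23%, 0.642 ± 0.268% and 26.2 ± 19.6%. The wide spread of the last value reflects the unequal Lmna levels of the Zn4 24 h libraries.

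**Figure D3:**
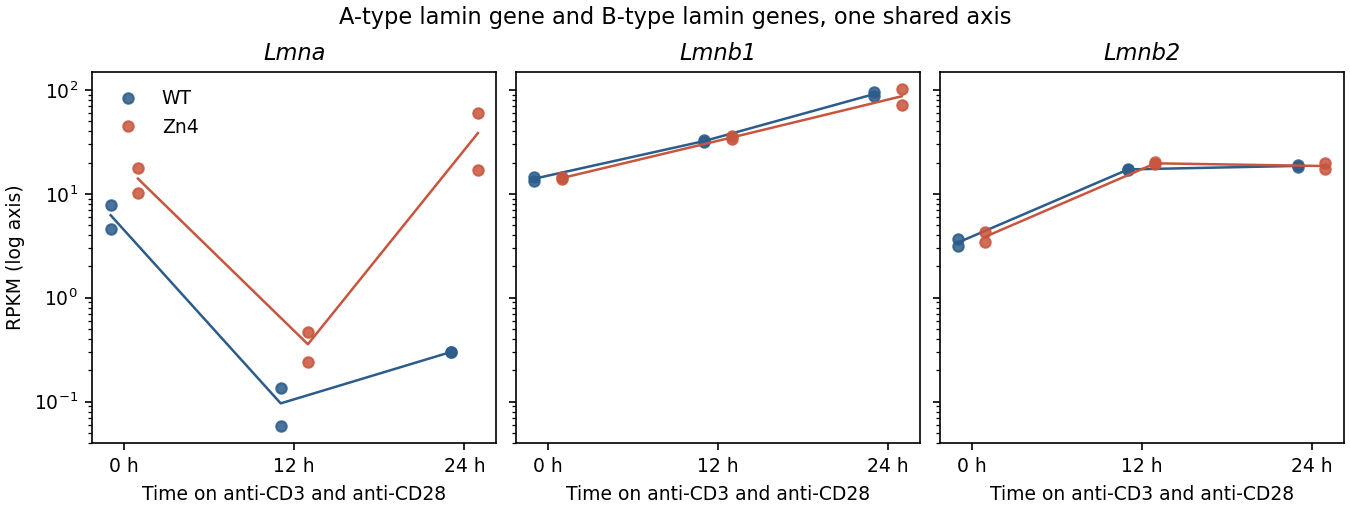
RPKM of Lmna, Lmnb1 and Lmnb2 in each library (points) and group means (lines) on a shared log axis against time on antibody; blue is WT and red is Zn4. Lmnb1 and Lmnb2 nearly coincide between genotypes, whereas Lmna at 24 h is 0.299 and 0.300 RPKM in WT and 17.2 and 60.0 RPKM in Zn4.

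Of 18 other tested genes of the nuclear lamina and inner nuclear membrane, 6 rose and 1 fell in WT and 7 rose in Zn4, with medians of 0.02 and 0.21. Those that rose in each genotype included Nrm, which encodes the inner membrane protein nurim (2.09 ± 0.16 in WT and 1.85 ± 0.16 in Zn4), and Lbr, which encodes the lamin B receptor (0.79 ± 0.10 and 1.05 ± 0.10). With the Y-linked sum as a covariate, 5 rose in WT and 3 in Zn4, and the WT fall, of Lemd2, was lost without any single WT library of 12 h or 24 h. Emd, which encodes emerin, did not pass the test (-0.08 and 0.21). No gene of the list was called for the difference between genotypes (limma, 0 of 18), with 3 at an unadjusted p under 0.05 and 0 in the limma-voom fit. Over all tested genes the share called for this difference was 0.786%. Of all tested genes, 17.0% rose and 6.94% fell in WT, against 22.6% and 11% in Zn4. Among 7 enzymes that process prelamin A or other prenylated proteins, 2 rose in WT and 3 in Zn4, but 0 in each with the Y-linked covariate. The WT count was also 0 without WT 12 h replicate 1, either WT 24 h library or either Zn4 12 h library, and the Zn4 count was 1 without Zn4 12 h replicate 1. Zmpste24, the protease that completes lamin A maturation, changed by -0.02 ± 0.09 and -0.05 ± 0.09, which did not pass the test. Of 5 other intermediate filament and linker genes tested, 0 changed in WT (limma, 0 at an unadjusted p under 0.05, 0 with limma-voom), and in Zn4 Plec rose while Krt18 fell. Plec encodes plectin, which crosslinks intermediate filaments. It went from 5.90 and 6.35 RPKM to 46.9 and 22.5 RPKM in Zn4 (log2 change 2.24 ± 0.28, adjusted p = 0.00033) and was 6.42 and 8.15 against 8.59 and 7.85 RPKM in WT. The difference of its changes was 2.08 ± 0.39, just short of a call (adjusted p = 0.053). Krt18, a keratin gene, stood at 1.98 and 1.66 RPKM at 12 h and at 0.474 and 1.11 at 24 h (-0.67 ± 0.16, adjusted p = 0.012). The Krt18 call did not survive the Y-linked covariate, a fit of only the 4 libraries compared, or the removal of Zn4 12 h or 24 h replicate 1.

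Galectin and galectin-related genes other than Lgals1 behaved unevenly, with Lgals3bp, which encodes a galectin-binding protein, and Lgalsl counted among them. Of 7 tested, Lgals9 alone rose in WT (1.08 ± 0.16, adjusted p = 0.0016), and Lgals3, Lgals3bp and Lgals9 rose in Zn4. Lgals3 encodes galectin-3, a lectin that also binds galactose-containing glycans. It went from 8.956 and 11.006 RPKM at 12 h to 81.3 and 53.5 at 24 h in Zn4 (2.62 ± 0.44, adjusted p = 0.0017), and was 0.753 and 3.01 against 3.17 and 2.72 RPKM in WT (0.57 ± 0.44). The Zn4 call was lost with the Y-linked covariate, under which 1 of the 3 Zn4 genes was called. The difference between genotypes was called for none of the 7 (limma, 2 at an unadjusted p under 0.05, 0 with limma-voom), against 0.786% of all tested genes. At rest, Lgals3 was 9.31 and 3.35 RPKM in Zn4 and 0.147 and 0.044 in WT, a difference of 2.61 ± 0.44 (limma adjusted p = 0.0077). Lgals7 and Lgalsl were also called higher at rest, 3 of 7 with Lgals3, and 0 of the 3 calls held when only the 0 h libraries were fitted. From 12 h to 24 h, 17.0% of all tested genes rose and 6.94% fell in WT, against 22.6% and 11% in Zn4. A list of 13 tested genes covered glycoproteins that galectin-1 binds and enzymes that build their glycans. Of these 13, 2 rose and 2 fell in WT, and 6 rose and 2 fell in Zn4. Without Zn4 12 h replicate 1, 3 rose in Zn4, and with the Y-linked covariate 2 rose. The WT counts were 1 and 0 without WT 12 h replicate 1 or either WT 24 h library, and 1 and 1 without WT 12 h replicate 2. Man2a1, which encodes an N-glycan mannosidase, rose in each genotype (0.92 ± 0.10 and 1.43 ± 0.10). Mgat5, which encodes a branching enzyme, fell in each (-0.40 ± 0.10 and -0.38 ± 0.10). Cd2, which encodes an adhesion receptor, fell in WT (-0.41 ± 0.11) and rose in Zn4 (0.48 ± 0.11). The difference of these changes was called (0.89 ± 0.16, adjusted p = 0.045), in 5 of 23 alternatives too.

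The S100 and annexin genes encode calcium-binding proteins that associate with membranes and the cytoskeleton. In the fit of all 12 libraries, more of them were called as rising in Zn4 than in WT cells. The counts themselves were not compared by a test. Of 14 tested, Ahnak included, 5 rose in WT and 12 in Zn4, none fell, and the medians were 0.38 and 1.22. In a fit of only the libraries compared the gap was small, with 9 higher and 1 lower in WT and 11 higher in Zn4. S100a4 is in the 12 and in the medians, although only the Zn4 24 h libraries took it past the filter on low values. Over all tested genes 17.0% rose in WT and 22.6% in Zn4, and the difference was called for 0.786%. Anxa2, which encodes annexin A2, stood at 1.60 and 2.29 RPKM at 12 h and 96.1 and 29.9 at 24 h in Zn4, against 2.46 and 2.46 and then 4.74 and 5.05 in WT. Its Zn4 rise was 4.23 ± 0.42 (limma adjusted p = 8.2e-05) and the difference 3.46 ± 0.59 (adjusted p = 0.039). Zn4 24 h replicate 1 held 3.21 times the Anxa2 of replicate 2, close to the 3.49 seen for Lmna. On the log2 scale this excess ranked 10 for Lmna, 17 for Anxa2, 35 for Ahnak and 114 for Plec among 12726 tested genes. It ranked 387 for Vim and 945 for Lgals1, and the median gene stood at -0.03. The Zn4 24 h means of these genes thus lean on replicate 1, and the cause was not tested. S100a10, which encodes the partner of annexin A2, rose in Zn4 (1.82 ± 0.18, adjusted p = 9.2e-05), from 32.2 and 42.4 to 155 and 114 RPKM. S100a4 was at 0 and 0.186 RPKM at 12 h and 4.33 and 5.32 at 24 h in Zn4, and never exceeded 0.351 RPKM in WT (difference 2.11 ± 0.19). S100a4 passed the filter on low values only through the Zn4 24 h libraries, so its call supports nothing here. Ahnak, a very large scaffold protein's gene, rose in Zn4 from 2.85 and 3.04 to 46.1 and 16.5 RPKM, below its resting 61.0 and 88.9 (2.86 ± 0.43, adjusted p = 0.0010). Anxa1 was listed but not tested, with 0.839 and 1.38 RPKM in Zn4 at 24 h and at most 0.0474 in WT. The difference was called for 4 of 14 genes (S100a4, S100a13, Anxa2 and Anxa7), but for 0 of them with a pseudocount of 0.1 and for 0 to 6 when 1 library was left out, with 0 without WT 12 h replicate 2 or WT 24 h replicate 2 and 6 without Zn4 24 h replicate 2. At most 2 were called without any other single library, 1 (S100a4) with the Y-linked covariate and 1 (S100a4) in a fit of only the libraries compared. The WT count was 3 without either WT 12 h or either WT 24 h library, and with the Y-linked covariate 3 rose in WT and 7 in Zn4.

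Effector and memory genes that are often reported with Vim and Lgals1 were read in the same way. Of 21 tested, 7 rose in WT, and 16 rose and 2 (Itgal and Cxcr3) fell in Zn4, with medians of 0.48 and 1.35. The shares over all tested genes were 17.0% higher and 6.94% lower in WT, and 22.6% and 11% in Zn4. Cd44, whose protein was used in the sort and which encodes a hyaluronan receptor, went from 9.16 and 8.96 to 69.2 and 47.8 RPKM in Zn4 (2.54 ± 0.20, adjusted p = 2.3e-05) and from 10.4 and 14.8 to 19.2 and 18.2 in WT (0.55 ± 0.20, not called). The difference was 1.99 ± 0.28 (adjusted p = 0.028). Emp3, which encodes a small membrane protein, went from 12.4 and 15.1 to 102 and 65.5 RPKM in Zn4 and from 11.7 and 14.3 to 25.5 and 25.2 in WT (difference 1.58 ± 0.27, adjusted p = 0.039). Itgb1, the integrin beta 1 gene, rose in WT (0.51 ± 0.07) and Zn4 (0.49 ± 0.07), with a difference of -0.03 ± 0.10 that was not called. The difference was called for 3 of 21 (Cd44, Emp3 and Glipr2), for 6 without Zn4 24 h replicate 2 and for at most 2 without any other single library, with 0 without WT 12 h replicate 2, either WT 24 h or either Zn4 12 h library. It was 0 as well with the Y-linked covariate and in a fit of only the libraries compared. The WT count was 4 without WT 12 h replicate 1, and the Zn4 count was 7 with the Y-linked covariate. This list, the S100 list and all other gene lists here were assembled with earlier results of these data known. All 20 cell division genes rose in each genotype, with medians of 3.22 in WT and 3.59 in Zn4. For none was the difference called (limma, 2 at an unadjusted p under 0.05, 0 with limma-voom). Over all tested genes the difference was called for 0.786%, so a count of 0 lies close to that share. Mki67, a marker of dividing cells, was 50.5 and 61.7 RPKM in WT and 51.4 and 66.1 in Zn4 at 24 h.

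**Figure D4:**
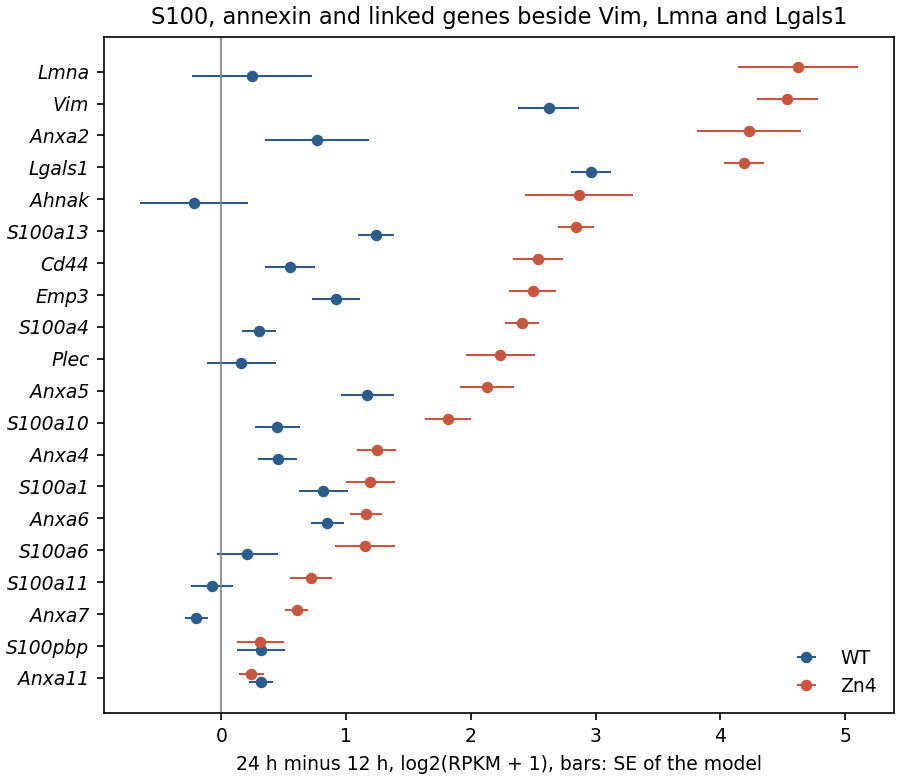
Change in log2(RPKM + 1) from 12 h to 24 h with the model's SE in WT (blue) and Zn4 (red), for 14 tested S100, annexin and Ahnak genes, Plec, Emp3, Cd44 and the 3 genes of interest. Zn4 points lie to the right of WT points for most genes, with 4.23 against 0.77 for Anxa2 and 2.24 against 0.16 for Plec.

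Genes whose log2(RPKM + 1) values followed each gene best over the 12 libraries were ranked by Pearson's r, as a description, since all share the same libraries and time course. For Vim they were Emp3 (0.97), Enpp4, Rtn4, Ly6e and Tor3a. For Lmna they were Plec (0.96), Myadm, Elovl7, Ostf1 and Rgs2. For Lgals1 they were Lxn (0.98), Grn, Vwa5a, Myo18a and Cd47. Between the 3 genes, r was 0.90 for Vim and Lmna, 0.88 for Vim and Lgals1, and 0.82 for Lmna and Lgals1. Each thus had closer matches elsewhere: Lmna ranked 62 for Vim, Vim ranked 42 for Lmna, and Vim ranked 54 for Lgals1.

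Neighbouring genes were read in the same way. Sema4a, which encodes a semaphorin and lies 18964 bp from Lmna, was 0.710 and 0.981 RPKM at 12 h and 8.50 and 5.15 at 24 h in Zn4, against 0.807 and 0.809 and then 1.23 and 1.09 in WT. It rose in Zn4 (2.05 ± 0.21, limma adjusted p = 9.6e-05), and the difference between genotypes was called (1.80 ± 0.29, adjusted p = 0.037). Mex3a, on the other side of Lmna at 22438 bp, was not called (0.16 ± 0.45 and 0.37 ± 0.45). Sh3bp1, 14673 bp from Lgals1, rose in WT (0.84 ± 0.20) and in Zn4 (1.64 ± 0.20), while Nol12, 4467 bp away, was not called in either. Trdmt1 and St8sia6, on either side of Vim, were not called in either genotype.

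Markers of other cell types were read beside the 24 h levels. Of 16 myeloid markers 3 were listed (Cd68, Itgam and Ctss), and their sum was 24.6 to 32.4 RPKM in Zn4 at 24 h against 53.6 to 55.9 in WT. At 0 h it was 59.2 to 64.2 in Zn4 against 47.0 to 48.6 in WT, with Itgam called higher, and its part in the resting difference was not tested. Lyz2, Csf1r, Tyrobp and S100a8 were not among the listed genes. Of 18 fibroblast and endothelial markers only Pecam1 and Thy1 were listed, which T cells also express. Their sum was 423 to 505 RPKM in Zn4 at 24 h against 215 to 220 in WT. Thy1 was called higher and Pecam1 lower in Zn4 at that time, and their part in the result was not tested. None of the searched collagen genes, nor Pdgfra, Pdgfrb, Cdh5 and Sparc, was listed. Of 8 B cell markers Cd79b and Cd74 were listed, at a sum of 26.8 to 27.3 RPKM in Zn4 and 22.2 to 25.1 in WT at 24 h, and at 23.1 to 42.5 and 2.85 to 3.43 RPKM at 0 h. Cd79b was called lower in Zn4 at 24 h, and Cd74 higher at 0 h. Their part in the higher resting Lgals1 of Zn4 cells was not tested. Of 11 natural killer and gamma-delta markers 3 were listed, at 4.94 to 4.99 RPKM in Zn4 and 2.84 to 3.90 in WT at 24 h. Of 6 CD4 and regulatory T cell markers 4 were listed, at 12.4 to 14.1 RPKM in Zn4 and 17.7 to 19.3 in WT at 24 h, though Ikzf2 was called higher in Zn4. At 0 h their sum was 42.2 to 54.7 in Zn4 and 21.9 to 35.1 in WT, with Ikzf2 called higher, and its part in the resting difference was not tested. No erythroid marker was listed.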

How the data were processed

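RNA libraries from 12 samples (6 groups of 2) were made with a stranded, single-end mRNA protocol, per the labels' protocols. The submitters' processing notes name TopHat2 2.0.12 and HTSeq 0.6.1 and the mouse genome builds mm10 and GRCm38. The authors deposited RPKM values (read counts over gene length and depth) for 12892 lines and 12885 gene symbols. For the 7 repeated symbols the line that comes before the other was kept, and every listed gene has a group mean of at least 1.00 RPKM. Low values step by the worth of 1 read, so whole reads were recovered for all 12885 genes (100.0% of values, tolerance 0.02 reads), and 7151 implied lengths equal GENCODE M21 exon lengths.

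Values were analysed as log2(RPKM + 1) with limma 3.58.1 in R 4.3.3 (trend, empirical Bayes), 1 mean per group over all 12 libraries (6 residual degrees of freedom), for the 12726 genes that reached 1 RPKM in 2 or more libraries. P-values were adjusted by Benjamini-Hochberg within each of 10 comparisons and genes under 0.05 were called. The members, the 8 gene lists and the 7 marker lists were chosen with earlier results of these data known. Named genes are the members, a fixed set of lamin, galectin, S100, annexin and adhesion genes, up to 4 called genes per list with the largest change, the 5 genes most like each member and the nearest listed neighbours; other names given within a count were chosen after their values were seen. Tried besides were another pseudocount (0.1), other filters (none, or 5 RPKM), other scalings (median-ratio, quantile), a robust variance estimate, separate fits per comparison, replicate blocks, a covariate of Y-linked transcripts and leaving out each library. After seeing the data, limma-voom was also run on the recovered reads; it called 43 genes for the difference between genotypes, against 100.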

Additional observations from a re-analysis of the deposited data

Results flagged for a closer look

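The change from 12 h to 24 h differed between Zn4 and WT cells, by a test of the difference itself (limma, adjusted p under 0.05), for 9 named genes other than Vim, Lmna and Lgals1. Some of the 9 were named because they were called in this same comparison. Sema4a was named as a neighbour of Lmna. The others came from lists made with earlier results of these data known, so the number of named genes called is no result. Over all tested genes 100 of 12726 (0.786%) were called. The difference on the log2(RPKM + 1) scale was 3.46 for Anxa2, 2.11 for S100a4, 1.99 for Cd44, 1.80 for Sema4a, 1.60 for S100a13, 1.58 for Emp3, 1.47 for Glipr2, 0.89 for Cd2 and 0.81 for Anxa7, in each case toward a more positive change in Zn4. All 9 lost the call with a pseudocount of 0.1. Of 23 alternatives, the call held in 15 for S100a13, 14 for Cd44, 14 for Glipr2, 9 for Sema4a, 7 for Anxa2, 7 for Anxa7, 6 for Emp3 and 5 for Cd2, and for S100a4 in 16 of the 20 that tested it. The adjusted p of Anxa2 ran from 0.00050 to 0.180 over these. Both Zn4 12 h libraries and WT 12 h replicate 1 carried Y-linked transcripts. With their sum as a covariate, 8 of the 9 calls were lost, with differences from 0.75 (Anxa7, adjusted p = 0.130) to 3.43 (Anxa2, adjusted p = 0.133), and S100a4 stayed called (2.06, adjusted p = 0.0303). S100a4 passed the filter on low values only through the Zn4 24 h libraries, so its call supports nothing here.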

How the results depend on the processing

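The rises of Vim, Lmna and Lgals1 and the differences of the rises kept their direction in all 23 alternatives. With the Y-linked covariate, Vim rose by 4.88 in Zn4, Lgals1 by 2.74 in WT and 3.76 in Zn4, and the Lgals1 difference was 1.03. With a pseudocount of 0.1, which weighs less on low levels, Lmna changed by 1.06 ± 0.55 in WT (SE) and 6.19 ± 0.55 in Zn4 (difference 5.13). With limma-voom on recovered reads Lmna changed by 1.66 ± 1.85 in WT (SE) and 6.56 ± 1.05 in Zn4. Leaving out 1 library gave 3.75 to 5.50 for Lmna in Zn4 (difference 3.50 to 5.25), and 2.74 to 3.19 for Lgals1 in WT (difference 1.00 to 1.45). Vim at 0 h passed the threshold with limma-voom (0.87, adjusted p = 0.0335).

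Counts of called genes moved more. Between 12 h and 24 h in WT, 3052 genes were called, 5094 with only the libraries compared, 1511 with the Y-linked covariate, and 1285 to 3391 without 1 library (1497 when WT 12 h replicate 1 was removed, 1514 and 1285 for WT 24 h replicates 1 and 2). In Zn4 the count was 4273, 847 with the Y-linked covariate, and 2413 (without Zn4 12 h replicate 1) to 4658. For the difference the count was 100, but 0 with a pseudocount of 0.1, 52 with quantile normalization, 10 with only the libraries compared, 7 with the Y-linked covariate, 43 with limma-voom, and 1 (without WT 12 h replicate 2) to 366 (without Zn4 24 h replicate 2), and at most 44 without any library other than Zn4 24 h replicate 2. Zn4 against WT at 0 h had 728 calls, 112 with only the libraries compared and 396 to 806 without 1 library, lowest without Zn4 0 h replicates 1 (465) and 2 (396). At 12 h it had 1671 calls, 892 with the Y-linked covariate and 737 to 1837 without 1 library (at most 1091 without any of the 4 libraries at 12 h). At 24 h it had 2464 calls and 1045 to 2771 without 1 library (1045 and 1053 without WT 24 h replicates 1 and 2, 1142 without Zn4 24 h replicate 1). Where 1 library is left in an arm, it is assumed to vary like the other groups. The causes of these shifts were not tested.

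The labels give no shared source for samples of 1 number, and 2 pairs per comparison are too few to show one. Same-numbered deviations correlated at 0.61 between WT and Zn4 at 0 h, the comparison in which the 3 genes were tested, at 0.19 at 12 h and at 0.04 at 24 h. A replicate block within each time point changed no call of the 3 genes at 0 h (limma adjusted p = 0.00033 for Lgals1, 0.0937 for Vim and 0.119 for Lmna). With a replicate block across all groups the difference had 49 calls. With a replicate block within each time point it had 216, and Zn4 against WT had 1343 calls at 0 h, 2644 at 12 h and 3794 at 24 h. At these depths 3 reads in a 2 kb gene correspond to 0.0449 to 0.0618 RPKM, against 0.0581 and 0.134 RPKM for Lmna in WT at 12 h.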
